A study of Mus musculus with 15 samples.

Results

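The fibroblast growth factor (Fgf) system of self-organizing mouse optic tissue was described at the transcript level, as 34 genes of 23244 entries in the expression table. The rule took genes by family name and role and used no measured value, though it was set with earlier results of these data known. It covers the 18 secreted ligands, the 4 intracellular Fgf genes Fgf11 to Fgf14, the receptors Fgfr1 to Fgfr4 and Fgfrl1, the carriers Fgfbp1 and Fgfbp3, the membrane cofactors Flrt1, Flrt2 and Flrt3, and the co-receptors Kl and Klb. All 15 libraries came from the 1 mouse ES cell line EB5 Rx::GFP+/-, in which GFP reports the eye field gene Rx, grown with a GSK3 inhibitor, a MEK inhibitor and LIF before aggregation (SFEBq culture, serum-free floating aggregates with Matrigel). There were 3 biological replicates in each of 5 groups. Day 10 Rx::GFP+ was optic epithelium explanted by forceps at Day 10. Day 12 +Fgf and Day 15 +Fgf were the same epithelium cultured on with human recombinant bFgf at 5 ng/ml plus 10% FBS, and are labelled neural retina. Day 12 +Wnt and Day 15 +Wnt were cultured on with the GSK3 inhibitor CHIR99201, at 3 µM for 24 h and 1 µM afterwards, and are labelled retinal pigmented epithelium. The +Fgf medium differed from the +Wnt medium in serum as well as in bFgf and the inhibitor, so their parts cannot be told apart, and no unstimulated explants of Day 12 or Day 15 were among the groups.

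Fgf ligands bind receptor tyrosine kinases of the Fgfr family together with heparan sulphate, and the activated receptor signals through the Ras to Erk cascade to induce its own inhibitors, the Sprouty and Spred proteins and the phosphatase Dusp6, and the Etv transcription factors. In the eye, Fgf from the surface ectoderm directs the distal optic vesicle to neural retina, and Wnt signalling directs the outer layer to pigment epithelium. The endocrine ligands need a Klotho co-receptor, and the intracellular Fgf genes encode proteins that are not secreted and bind voltage-gated sodium channels instead of the receptors.

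Libraries held between 12556998 and 16175450 reads in genes, so that 1 read was worth 0.0620 to 0.0764 CPM (the share of a library's reads scaled to a common total, corrected by the authors with TMM factors). Neural retina progenitor markers (7 genes, all found) summed to between 2301 and 2379 CPM in Day 15 +Fgf and between 593 and 633 CPM in Day 15 +Wnt. The 9 pigment epithelium markers summed to between 329 and 398 CPM in Day 15 +Fgf and between 5295 and 6844 CPM in Day 15 +Wnt, with the mature marker Rpe65 at 0 in every +Wnt, Day 10 and Day 12 +Fgf library. The Day 15 +Wnt sum came mostly from Pmel (3112 to 4204 CPM), while Otx2 (213 to 242 CPM) overlapped its Day 10 values (177 to 218 CPM). Retinal ganglion cell and early neuron markers (9 genes) summed to between 99.4 and 136 CPM at Day 10, between 1389 and 1521 CPM in Day 15 +Fgf and between 913 and 1178 CPM in Day 15 +Wnt. The Day 15 +Wnt sum came mostly from the general neuron genes Dcx, Stmn2, Gap43, Elavl3 and Elavl4. Of the ganglion cell genes, Atoh7, Isl1 and Pou4f2 were at or under 2.03 CPM there. Pou4f1 had 5.89 to 8.75 CPM there, which overlapped its Day 10 values (4.09 to 6.19 CPM), against 24.3 to 33.3 CPM in Day 15 +Fgf. The 9 mesenchyme and neural crest markers summed to between 402 and 472 CPM in Day 15 +Wnt, against 71.2 to 97.2 CPM at Day 10 and 156 to 253 CPM in Day 12 +Fgf. The Day 15 +Wnt sum came mostly from Col3a1, Col1a2, Col1a1, Prrx1 and Pdgfra. The neural crest genes Sox10 and Foxd3 were at or under 0.19 CPM there, and Foxc1 overlapped its Day 10 values. In this bulk tissue, fewer cells of a type and less RNA per cell cannot be told apart.

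Of the 34 genes, 1 (Fgf6, a muscle ligand) had no read in any library and 21 had reads in every library. Differences were tested on log2(CPM + 0.3) with limma over all 13845 genes that reached 1 CPM in at least 3 libraries, and every adjusted p below is limma's after Benjamini-Hochberg adjustment over those genes, called at 0.05. The RNA integrity number (RIN), a measure of RNA degradation, was lowest on average in Day 15 +Fgf by the study's sample table. Calls of the 34 genes that were lost with it as a covariate are given as such. For the other pathway genes below, no result with RIN is given, so their calls are not shown to hold with it. The filter kept 21 of the 34. Of these, 12 were above 1 CPM in all 15 libraries and 9 were not, and Fgf3 passed only through the 3 Day 15 +Fgf libraries, so its difference from the other groups was built into the filter. Fgfr4 and Fgf5 passed only through Day 15 libraries, Fgf18 only through +Wnt libraries, and Fgfbp1 through the Day 15 +Wnt libraries and 1 Day 10 library. Their higher levels in those groups were thus wholly or largely built in as well. Fgf11 and Fgf14 passed through later libraries and no Day 10 library, so the filter favoured their rises from Day 10.

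For 4 of the genes on which the difference between the media turned, the 250 bases before the RefSeq start site (GRCm38.p6) are shown, from 5′ to 3′ on the gene's strand. Fgf9 and Fgf3 were higher in +Fgf, and Fgfbp1 and Flrt3 were higher in +Wnt at Day 15. The table of promoters held 26 of the 34 genes, and Fgf15, the ligand with the largest difference, was not among them. Capitals mark CG dinucleotides, the sites of DNA methylation, of which these stretches hold 11, 4, 3 and 5, against a median of 6 over all 32851 promoters.
Fgf9, chr14:58072436-58072685, plus strand: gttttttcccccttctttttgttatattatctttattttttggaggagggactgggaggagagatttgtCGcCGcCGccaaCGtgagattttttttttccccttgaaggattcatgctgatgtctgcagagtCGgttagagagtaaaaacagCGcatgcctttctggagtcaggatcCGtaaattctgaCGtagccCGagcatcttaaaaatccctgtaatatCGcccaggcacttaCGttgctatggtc
Fgf3, chr7:144838362-144838611, plus strand: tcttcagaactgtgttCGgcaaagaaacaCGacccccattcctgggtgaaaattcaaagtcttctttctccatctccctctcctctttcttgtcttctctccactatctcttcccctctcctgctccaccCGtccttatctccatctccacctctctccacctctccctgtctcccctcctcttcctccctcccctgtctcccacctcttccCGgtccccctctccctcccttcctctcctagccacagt
Fgfbp1, chr5:43981800-43982049, minus strand: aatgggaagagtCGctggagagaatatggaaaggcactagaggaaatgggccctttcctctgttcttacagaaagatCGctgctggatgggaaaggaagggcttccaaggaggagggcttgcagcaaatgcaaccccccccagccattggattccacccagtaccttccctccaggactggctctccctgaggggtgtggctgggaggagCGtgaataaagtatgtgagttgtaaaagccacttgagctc
Flrt3, chr2:140671477-140671726, minus strand: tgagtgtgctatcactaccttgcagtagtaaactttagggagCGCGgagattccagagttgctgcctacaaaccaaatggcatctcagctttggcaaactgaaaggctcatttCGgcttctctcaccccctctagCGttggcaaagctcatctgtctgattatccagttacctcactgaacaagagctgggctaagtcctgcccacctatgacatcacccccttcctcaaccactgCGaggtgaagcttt
On both strands, none of these stretches holds the TCF/LEF core ATCAAAG, the ETS core CCGGAAG, the E-box CACGTG or the homeodomain core TAATTA, which occur in 3.21%, 6.91%, 6.02% and 4.84% of all promoters of this length. Over the 33 start sites of the 26 genes, the E-box occurred before Fgf21, Fgfrl1 and Flrt2 (9.09%), the ETS core before Fgfrl1 and the TCF/LEF core before Fgf6.

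The ligands Fgf15 and Fgf9 were higher in +Fgf than in +Wnt at both days, and the receptor Fgfr2 and the intracellular Fgf12 were lower. Between +Fgf and +Wnt, 10 of the 21 tested genes passed the threshold at Day 12 (51.5% of all genes did), 7 higher and 3 lower in +Fgf (26.3% and 25.2% of all genes), and 7 of the 10 differed by at least 1 on the log2 scale (12.7% of all genes). At Day 15, 14 of 21 passed (68.7% of all genes), 7 in each direction (38% of all genes were higher and 30.6% lower), and 8 differed by at least 1 (19.7%). The shares of the tested members were 47.6% and 66.7% at the threshold and 33.3% and 38.1% for the larger differences, and they include members such as Fgf3 and Fgfbp1 whose difference the filter built in.

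Fgf15 (chromosome 7, 144896531 to 144900953, positions on GRCm38 throughout) encodes an endocrine ligand known for controlling bile acid synthesis from the ileum and also made by retinal progenitors. It was read at 57.4, 62.0 and 46.4 CPM in the 3 Day 10 libraries, and at 166, 255 and 194 CPM in Day 12 +Fgf and 616, 536 and 556 CPM in Day 15 +Fgf. In +Wnt it was read at 11.2, 7.03 and 9.86 CPM at Day 12 and 14.9, 25.0 and 19.4 CPM at Day 15. All 5 groups were apart from each other without overlap. Fgf15 rose by 1.87 ± 0.19 (log2 fold change ± SE, adjusted p 3.96e-07) from Day 10 to Day 12 +Fgf and fell by 2.54 ± 0.19 (adjusted p 1.01e-08) to Day 12 +Wnt. It was 21.9 times higher in +Fgf than in +Wnt at Day 12 (log2 difference 4.41 ± 0.19, adjusted p 9.53e-12) and 28.8 times higher at Day 15 (4.86 ± 0.19, adjusted p 1.05e-12). From Day 12 to Day 15 it rose in both media, by 1.49 ± 0.19 in +Fgf (adjusted p 3.48e-06) and by 1.05 ± 0.19 in +Wnt (adjusted p 9.16e-05). Exons of Fgf15 overlap Gm26793 and Gm39119 on the opposite strand, and as the strand setting of the counting was not given in the sources used here, reads of these genes cannot be told apart.

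Fgf9 (chromosome 14, 58070547 to 58112720), a ligand of the neural retina at its border with the pigment epithelium, followed the same order. Its Day 10 libraries held 9.06, 11.9 and 11.4 CPM. The +Fgf libraries held 23.8, 16.4 and 22.4 CPM at Day 12 and 26.0, 25.2 and 24.9 CPM at Day 15, and the +Wnt libraries held 1.13, 1.74 and 1.32 CPM at Day 12 and 2.54, 4.10 and 3.30 CPM at Day 15. Every +Fgf library was therefore above, and every +Wnt library below, the Day 10 libraries. Fgf9 fell by 2.71 ± 0.18 (adjusted p 3.42e-09) from Day 10 to Day 12 +Wnt, and rose by 0.93 ± 0.18 (adjusted p 3.45e-04) to Day 12 +Fgf. The difference between the media was 3.64 ± 0.18 at Day 12 (adjusted p 5.86e-11) and 2.85 ± 0.18 at Day 15 (adjusted p 4.46e-10). In +Wnt it then rose by 1.082 ± 0.18 (adjusted p 4.55e-05), a call that was lost under quantile normalization (0.39, adjusted p 0.0611), while in +Fgf the change of 0.29 ± 0.18 did not pass (adjusted p 0.175).

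**Figure D1:**
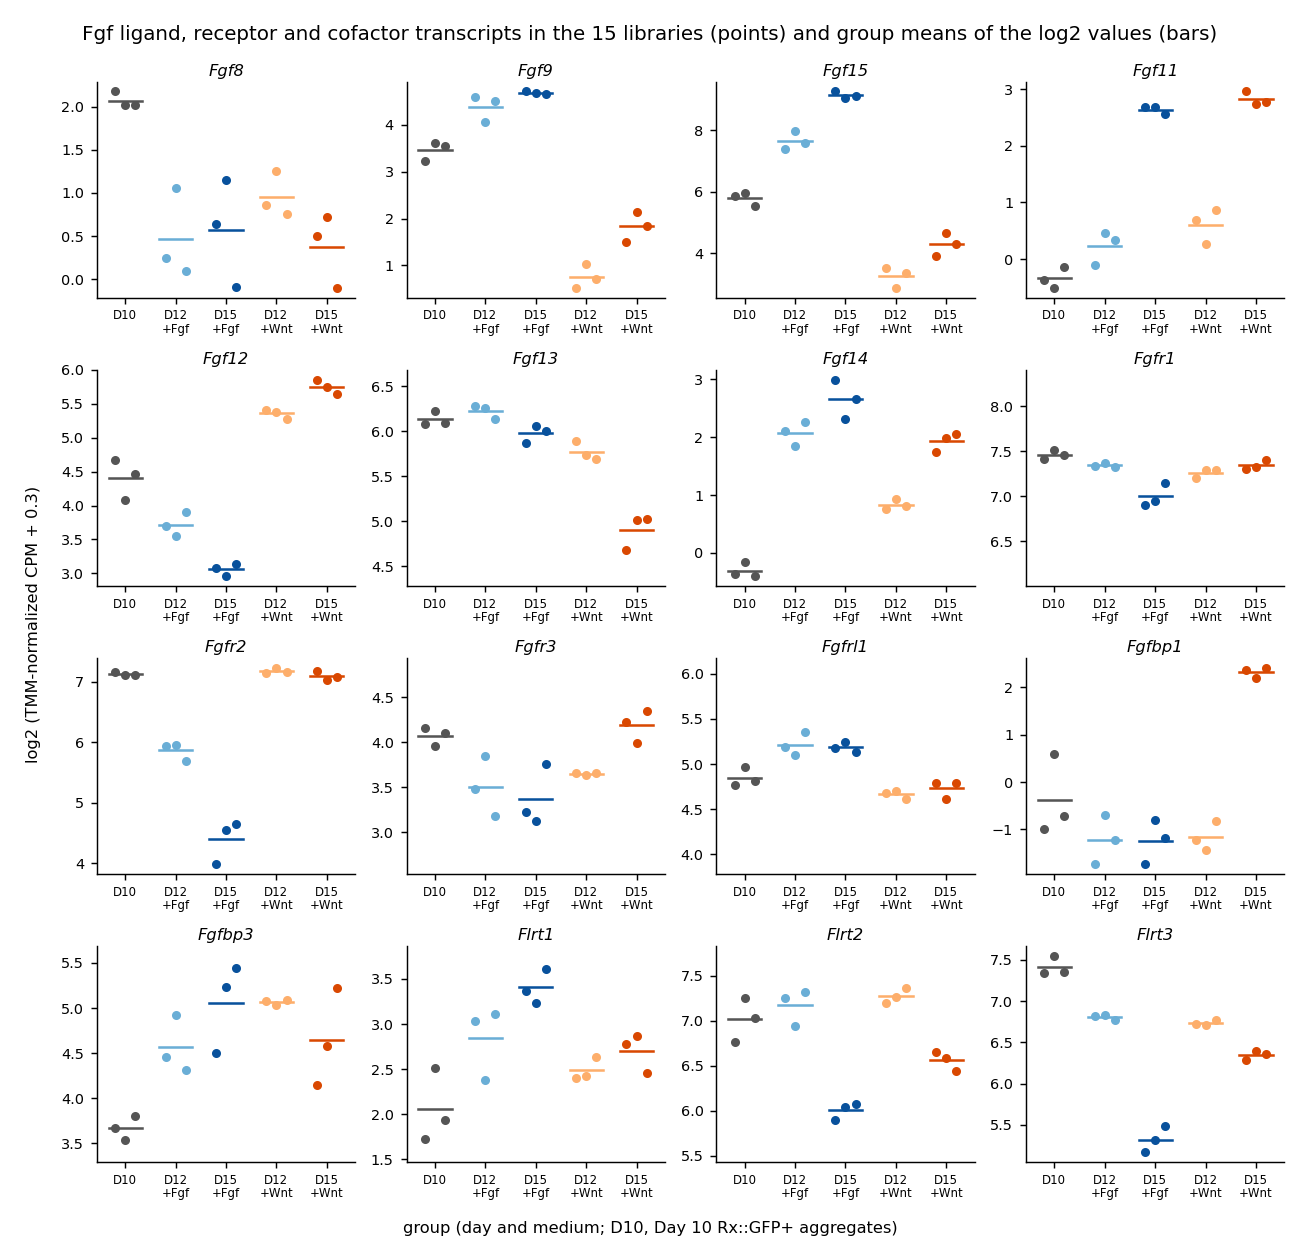
Level of each of the 16 genes with a group mean of at least 3 CPM, as log2(TMM-normalized CPM + 0.3), in the 15 libraries; points are the 3 replicates of a group and short bars the group means of the log2 values, and the range of the vertical axis differs between panels. Fgf15 and Fgf9 lie above Day 10 in +Fgf and below it in +Wnt, Fgfr2 falls in +Fgf, and Fgfbp1 stands out in Day 15 +Wnt.

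Fgf3 (chromosome 7, 144838083 to 144844436), a ligand of inner ear and retinal development, lies beside Fgf4 and Fgf15 on chromosome 7, with gaps of 2930 bases between Fgf3 and Fgf4 and 31287 bases between Fgf4 and Fgf15. Its level was low, and it passed the filter only through Day 15 +Fgf, so its height there was built in. It was read at 1.401, 1.85 and 1.77 CPM in Day 15 +Fgf (19 to 27 reads in a library) and at 0.0629 to 0.447 CPM in the 12 other libraries. Fgf3 rose by 1.62 ± 0.25 in +Fgf from Day 12 to Day 15 (adjusted p 3.82e-05) and was higher in +Fgf than in +Wnt by 1.72 ± 0.25 at Day 15 (adjusted p 1.22e-05), where 71 reads in +Fgf stood against 13 in +Wnt, a ratio of 5.66 (95% exact interval 3.11 to 11.1, counting error only). At Day 12 the difference of 0.72 ± 0.25 (adjusted p 0.0242) was lost without Day 12 +Fgf replicate 1, Day 12 +Wnt replicate 1 or Day 12 +Wnt replicate 3 (adjusted p 0.0639 to 0.0712), and with 1 CPM in place of 0.3 CPM added (0.0690). The rise of 0.62 ± 0.25 in +Wnt (adjusted p 0.0382) was lost without Day 12 +Wnt replicate 1 or 3 or Day 15 +Wnt replicate 2 or 3 (adjusted p 0.0666 to 0.1599), and with 1 CPM added, under quantile normalization or with only the groups compared (0.0748 to 0.546). The neighbour Fgf4 reached at most 1.82 CPM, close to the highest value of Fgf3, and was not tested because only 2 libraries reached 1 CPM.

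Fgf8 (chromosome 19, 45736798 to 45742915), a signal of the anterior forebrain and optic stalk, was highest at Day 10, with 4.22, 3.74 and 3.74 CPM. All 12 later libraries lay below this, between 0.631 and 2.09 CPM. It fell by 1.60 ± 0.31 to Day 12 +Fgf (adjusted p 4.03e-04) and by 1.11 ± 0.31 to Day 12 +Wnt (adjusted p 0.00586), and neither call held with RIN as a covariate (adjusted p 0.0791 and 0.201). The media did not differ in it beyond the threshold at Day 12 (-0.49 ± 0.31, adjusted p 0.208) or Day 15 (0.19 ± 0.31, adjusted p 0.600).

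Fgf10 (chromosome 13, 118669791 to 118792115), the mesenchymal ligand of lung and limb buds, had 2.52, 2.54 and 2.60 CPM at Day 10 and 2.92, 2.87 and 2.87 CPM in Day 12 +Fgf, but 0.944, 0.696 and 0.596 CPM in Day 12 +Wnt. It fell by 1.46 ± 0.29 to Day 12 +Wnt (adjusted p 4.00e-04) and was higher in +Fgf than in +Wnt by 1.62 ± 0.29 at Day 12 (adjusted p 1.86e-04). In +Wnt it then rose by 0.90 ± 0.29 (adjusted p 0.0117; 0.563 under quantile normalization). At Day 15 the media did not differ in Fgf10 beyond the threshold (0.06 ± 0.29, adjusted p 0.851). The 3 Day 15 +Fgf libraries were uneven, with 3.57 CPM in replicate 2 and 1.18 and 1.13 CPM in the others, and Day 15 +Wnt had 1.80, 1.79 and 1.33 CPM. Fgf18 (chromosome 11), a ligand of bone and lung, stayed at or under 1.59 CPM. It was lower in +Fgf than in +Wnt by 1.30 ± 0.37 at Day 12 (adjusted p 0.00790), from 12 reads against 49. Fgf18 passed the filter only through +Wnt libraries, so this difference was built into the filter. Its rise of 0.93 ± 0.37 from Day 10 to Day 12 +Wnt (adjusted p 0.0392) was lost without Day 10 replicate 1 or 2 or Day 12 +Wnt replicate 2 or 3 (adjusted p 0.0910 to 0.171), and with 0.05 CPM added, quantile normalization, RIN or PCR cycles (0.0524 to 0.110).

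The remaining secreted ligands were rare. Fgf5, an epiblast ligand that also ends hair growth, was tested and passed no comparison, and it was the 1 tested gene of the 21 without a difference over the 5 groups by the F test (20 of 21, against 94.2% of all genes). It was read at 3.98 CPM in Day 15 +Fgf replicate 2 and 0.0737 and 0.0707 CPM in the other 2 libraries of that group. The same library held 0.618 CPM of Fgf4, the ligand of embryonic stem cells, against 0 in the other 2, and a sum of 15.0 CPM over 5 pluripotent cell markers against 1.03 and 1.84 CPM. In Day 15 +Wnt, replicate 1 had the lowest Fgf4 (0.248 CPM, against 1.27 and 1.82 CPM) and the lowest sum of pluripotent markers (11.4 CPM, against 54.3 and 55.8 CPM). The part of such cells in these values was not tested. The acidic ligand Fgf1 had at most 22 reads in a library and Fgf2, whose human protein was the +Fgf supplement, at most 4. Fgf7, Fgf17, Fgf16, Fgf20, Fgf22, Fgf21 and Fgf23 stayed at or under 12 reads in every library. The Klotho co-receptors, which the endocrine ligands use, were near the limit of detection: Kl had at most 8 reads and Klb at most 22.

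Compared per kilobase of exon, Fgf15 was the highest secreted ligand in each group, at 18.1 ± 2.62 CPM per kb at Day 10 (mean ± SD, n = 3), 67.0 ± 14.8 in Day 12 +Fgf and 186 ± 13.7 in Day 15 +Fgf, and at 3.06 ± 0.696 and 6.46 ± 1.65 in Day 12 and Day 15 +Wnt. The sum over the 18 ligands was 25.1 CPM per kb at Day 10, 195 in Day 15 +Fgf and 10.6 in Day 15 +Wnt, of which Fgf15 made up 71.8% ± 3.64 (SD, n = 3), 95.2% ± 1.06 and 60.5% ± 3.23. In Day 12 +Wnt the sum was 6.54 and the share of Fgf15 46.5% ± 8.20. Fgf9 was the next in both +Fgf groups, at 4.50 ± 0.844 and 5.45 ± 0.119 CPM per kb. Fgf8 was next at Day 10, at 2.89 ± 0.206, close to Fgf9 at 2.32 ± 0.325, and in Day 12 +Wnt, at 1.23 ± 0.276. In Day 15 +Wnt, Fgf18 (0.851 ± 0.458), Fgf8 (0.763 ± 0.269) and Fgf9 (0.713 ± 0.168) lay within each other's spread. These orders rest on the length used. With the transcript of the accession listed in the deposited table as the length, a choice made after the data were seen, Fgf9 was above Fgf8 at Day 10 (6.77 ± 0.949 against 3.34 ± 0.238 CPM per kb). In Day 15 +Wnt, Fgf9 (2.08 ± 0.489) was then above Fgf18 (0.9297 ± 0.500) and Fgf8 (0.882 ± 0.311).

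The intracellular Fgf genes moved in 3 different ways. Fgf12 (chromosome 16, 28160098 to 28753068) was the most strongly divided. It was read at 25.1, 16.7 and 21.8 CPM at Day 10, at 12.7, 11.5 and 14.6 CPM in Day 12 +Fgf and at 8.11, 7.49 and 8.55 CPM in Day 15 +Fgf, but at 42.1, 41.4 and 38.6 CPM in Day 12 +Wnt and 57.7, 53.3 and 49.6 CPM in Day 15 +Wnt. Both +Wnt groups lay above Day 10 and both +Fgf groups below it, with no overlap between groups. Fgf12 was lower in +Fgf than in +Wnt by 1.64 ± 0.12 at Day 12 (adjusted p 9.41e-09) and by 2.69 ± 0.12 at Day 15 (adjusted p 8.10e-12). The summed pigment epithelium markers had medians below Day 10 in +Fgf and above it in +Wnt (1107 CPM at Day 10, 361 and 386 CPM in Day 12 and Day 15 +Fgf, and 1524 and 6194 CPM in Day 12 and Day 15 +Wnt). Unlike Fgf12, these sums overlapped between Day 12 +Wnt (1336 to 1731 CPM) and Day 10 (1002 to 1344 CPM). So did Pmel, Dct, Mitf and Slc45a2 singly, while Tyr, Tyrp1, Otx2 and Mlana were higher in every Day 12 +Wnt library than at Day 10. The part of these markers in the levels of Fgf12 was not tested.

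Fgf13 (chromosome X, 59062145 to 59568071), which also binds microtubules, was at 17.4 ± 1.01 CPM per kb at Day 10 and was the most abundant of the 4 in every group except Day 15 +Wnt, where Fgf12 had 8.63 ± 0.654 and Fgf13 7.43 ± 0.957 CPM per kb. Its libraries held 67.3, 74.7 and 68.1 CPM at Day 10, between 70.2 and 77.3 CPM in Day 12 +Fgf and between 58.1 and 66.4 CPM in Day 15 +Fgf. In +Wnt it fell to between 51.5 and 58.9 CPM at Day 12 and to 25.4, 32.0 and 32.2 CPM at Day 15. It was higher in +Fgf by 0.45 ± 0.09 at Day 12 (adjusted p 3.03e-04) and by 1.07 ± 0.09 at Day 15 (adjusted p 8.90e-09). The small decrease of 0.25 ± 0.09 in +Fgf from Day 12 to Day 15 (adjusted p 0.0203) was lost without Day 12 +Fgf replicate 1 or 2 or Day 15 +Fgf replicate 1 (adjusted p 0.0558 to 0.0911), and with RIN as a covariate it turned to 0.07 (adjusted p 0.784).

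Fgf11 (chromosome 11, 69796068 to 69801857) and Fgf14 (chromosome 14, 123977907 to 124677127) rose in both media. Fgf11 passed the filter through no Day 10 library and mostly through Day 15 libraries, so the filter favoured its rises. Fgf11 was at 0.401 to 0.611 CPM at Day 10, 0.634 to 1.083 CPM in Day 12 +Fgf and 0.905 to 1.52 CPM in Day 12 +Wnt, and reached 6.12, 6.11 and 5.58 CPM in Day 15 +Fgf and 7.51, 6.41 and 6.52 CPM in Day 15 +Wnt. It rose from Day 12 to Day 15 by 2.41 ± 0.20 in +Fgf (adjusted p 3.79e-08) and 2.22 ± 0.20 in +Wnt (adjusted p 5.12e-08), and the difference between these changes was 0.19 ± 0.28 (adjusted p 0.607). The earlier rise to Day 12 +Fgf of 0.57 ± 0.20 (adjusted p 0.0230) was lost without Day 10 replicate 1 or 2 or Day 12 +Fgf replicate 2 or 3 (adjusted p 0.0508 to 0.0949), and also with RIN as a covariate, under quantile normalization and with only the groups compared in the fit (adjusted p 0.0545 to 0.0976).

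Fgf14, named in the ataxia that its mutation causes, went from 0.477, 0.602 and 0.458 CPM at Day 10 to 3.99, 3.31 and 4.47 CPM in Day 12 +Fgf and to 1.38, 1.60 and 1.46 CPM in Day 12 +Wnt. At Day 15 it had 7.67, 4.67 and 6.01 CPM in +Fgf and 3.04, 3.65 and 3.86 CPM in +Wnt. It rose by 2.37 ± 0.19 to Day 12 +Fgf (adjusted p 3.55e-08) and by 1.13 ± 0.19 to Day 12 +Wnt (adjusted p 7.55e-05), and the media differed by 1.24 ± 0.19 at Day 12 (adjusted p 3.61e-05) and 0.73 ± 0.19 at Day 15 (adjusted p 0.00259; 0.0949 with RIN as a covariate). The further rise in +Fgf of 0.58 ± 0.19 (adjusted p 0.0142) was lost without Day 12 +Fgf replicate 2 or Day 15 +Fgf replicate 1 (adjusted p 0.0672 and 0.0890), and with quantile normalization or RIN (0.190 and 0.261). The rise of 1.10 ± 0.19 in +Wnt (adjusted p 6.98e-05) was lost under quantile normalization (0.40, adjusted p 0.0875). Fgf14 passed the filter through no Day 10 library, so the filter favoured its rises to Day 12. Exons of Fgf14 overlap Gm28932 on the opposite strand. The summed ganglion cell and early neuron markers were also higher at Day 15 than at Day 12 in both media (201 to 219 CPM in Day 12 +Fgf and 330.1 to 490.4 CPM in Day 12 +Wnt, beside the Day 15 ranges given above), and their part in the levels of Fgf11 and Fgf14 was not tested.

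**Figure D2:**
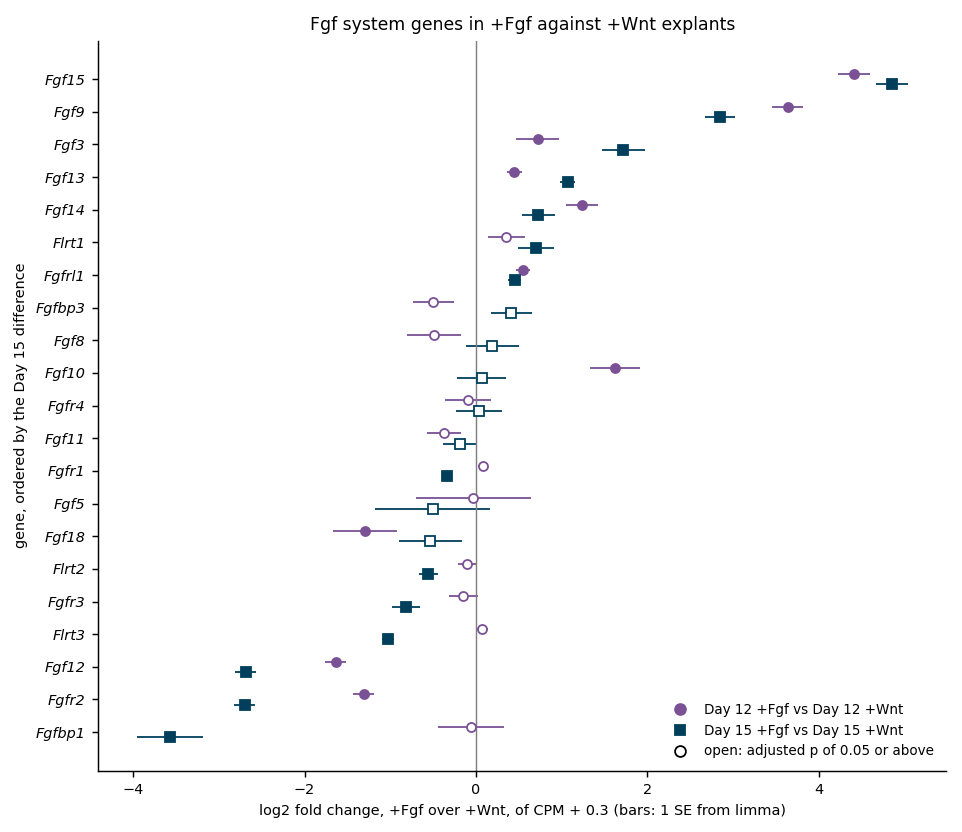
Log2 fold change of CPM + 0.3 in +Fgf over +Wnt for the 21 tested genes at Day 12 (circles) and Day 15 (squares), with bars of 1 SE from limma; filled symbols have an adjusted p under 0.05. Fgf15, Fgf9 and Fgf3 lead the side of +Fgf and Fgfbp1, Fgfr2 and Fgf12 that of +Wnt at Day 15. The filter built in the Day 15 differences of Fgf3 and, for the most part, Fgfbp1.

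Among the receptors, Fgfr2 differed most between the media. Fgfr2 (chromosome 7, 130162451 to 133123350) encodes the receptor whose splice forms serve epithelial and mesenchymal ligands, and on the annotation 1 of its transcripts reaches into Ctbp2 on the same strand, so reads could be shared with that gene. Fgfr2 was read at 142, 139 and 138 CPM at Day 10, at 61.0, 62.1 and 51.6 CPM in Day 12 +Fgf and at 15.6, 23.2 and 24.8 CPM in Day 15 +Fgf. In +Wnt it had 141, 150.3 and 142 CPM at Day 12 and 145, 130.2 and 135 CPM at Day 15, which overlapped the Day 10 values at both days. It fell by 1.26 ± 0.12 to Day 12 +Fgf (adjusted p 2.43e-07) and by a further 1.47 ± 0.12 to Day 15 +Fgf (adjusted p 3.04e-08). Between Day 10 and Day 12 +Wnt its difference was 0.05 ± 0.12 (adjusted p 0.740). The media differed by -1.31 ± 0.12 at Day 12 (adjusted p 1.05e-07) and -2.70 ± 0.12 at Day 15 (adjusted p 5.94e-12), a level in Day 15 +Fgf of 0.155 times that in Day 15 +Wnt.

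Fgfr1 (chromosome 8, 25513654 to 25575718), the receptor most used in neural tissue, stayed within a narrow range of 119 to 182 CPM over all libraries. It fell by 0.20 ± 0.06 to Day 12 +Wnt (adjusted p 0.00592; 0.212 under quantile normalization) and by 0.34 ± 0.06 from Day 12 to Day 15 +Fgf (adjusted p 7.24e-05), and it was lower in Day 15 +Fgf than in Day 15 +Wnt by 0.34 ± 0.06 (adjusted p 4.69e-05). Both Day 15 calls were lost with RIN as a covariate (adjusted p 0.312 and 0.162). Exons of Fgfr1 overlap Gm16159 on the opposite strand. Fgfr3 (chromosome 5, 33721674 to 33737068), a brake on bone growth also expressed in neural progenitors, ranged between 8.45 and 20.1 CPM. Its libraries held 17.6, 15.2 and 16.9 CPM at Day 10 and 18.4, 15.6 and 20.1 CPM in Day 15 +Wnt, with lower values in the 3 groups between them. It fell by 0.57 ± 0.17 to Day 12 +Fgf (adjusted p 0.00792; 0.0525 without Day 12 +Fgf replicate 3) and by 0.42 ± 0.17 to Day 12 +Wnt (adjusted p 0.0360), a call lost without Day 10 replicate 1 or 3 or any 1 of the Day 12 +Wnt replicates 1, 2 and 3 (adjusted p 0.0676 to 0.0980), and without the filter, without a trend or with PCR cycles as a covariate (0.0551 to 0.0761). In +Wnt it rose from Day 12 to Day 15 by 0.54 ± 0.17 (adjusted p 0.00861; 0.0809 under quantile normalization). At Day 15 Fgfr3 was lower in +Fgf by 0.82 ± 0.17 (adjusted p 3.41e-04; 0.372 with RIN as a covariate). Exons of Fgfr3 overlap G630022F23Rik on the opposite strand.

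Fgfr4 (chromosome 13, 55152640 to 55168759), the receptor of liver and early muscle, was at or under 0.869 CPM through Day 12 and between 1.24 and 1.57 CPM in the 6 Day 15 libraries. It rose by 1.15 ± 0.27 in +Fgf (adjusted p 0.00162) and 1.02 ± 0.27 in +Wnt (adjusted p 0.00294; 0.309 under quantile normalization). As Fgfr4 passed the filter only through Day 15 libraries, a rise to Day 15 was built into the filter. Fgfrl1 (chromosome 5, 108692382 to 108706924), which lacks the intracellular kinase, was read at 26.8, 31.1 and 27.8 CPM at Day 10 and was higher in +Fgf, at 36.2, 33.9 and 40.5 CPM at Day 12 and 36.0, 37.5 and 34.8 CPM at Day 15. All 6 +Wnt libraries had between 24.1 and 27.4 CPM. The media differed by 0.55 ± 0.08 at Day 12 (adjusted p 1.94e-05) and 0.45 ± 0.08 at Day 15 (adjusted p 7.75e-05; 0.0685 with RIN as a covariate).

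On the scale of CPM per kilobase, the 4 kinase receptors summed to 33.8 ± 0.393 at Day 10, 23.7 ± 1.10 in Day 12 +Fgf and 16.8 ± 1.95 in Day 15 +Fgf, while the +Wnt groups kept 31.3 ± 0.848 and 32.5 ± 1.05. Fgfr1 made up 52.6% ± 1.30 (SD, n = 3) of this sum at Day 10 and 77.1% ± 1.93 in Day 15 +Fgf, and Fgfr2 40.0% ± 0.999 and 12.1% ± 1.99. In Day 15 +Wnt the shares were 50.4% ± 1.75 for Fgfr1 and 40.7% ± 1.84 for Fgfr2. With the transcript of the accession listed in the deposited table as the length, a choice made after the data were seen, the share of Fgfr2 was 45.3% at Day 10 and 14.7% in Day 15 +Fgf. Fgfr1 and Fgfr2 of Day 12 +Wnt, at 15.5 ± 0.558 and 14.0 ± 0.484, were the closest neighbours in the order among the upper receptors, and with that other length the order of these neighbours was reversed.

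**Figure D3:**
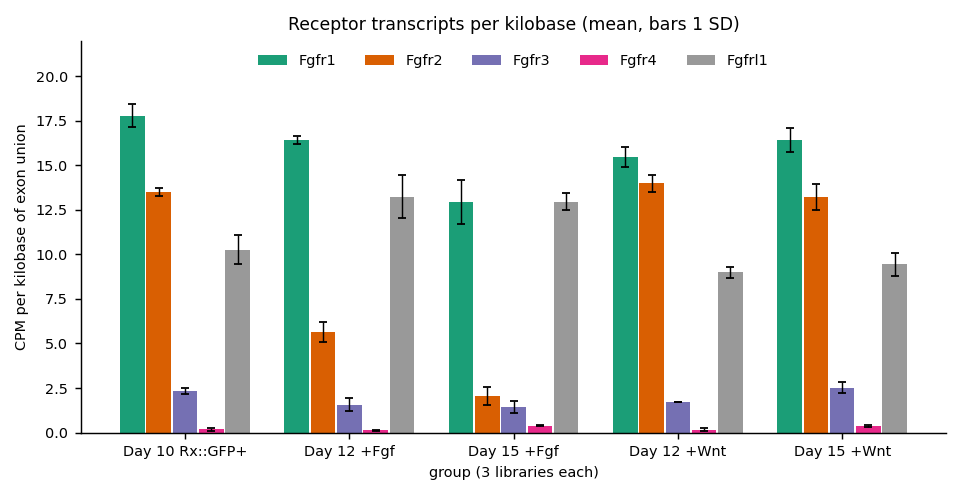
Receptor transcripts in CPM per kilobase of exon union by group, as means of 3 libraries with bars of 1 SD. Fgfr2 drops from 13.5 at Day 10 to 2.05 in Day 15 +Fgf, while Fgfr1 stays between 13.0 and 17.8 in the 5 groups.

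The carrier and cofactor genes divided by day as well as by medium. Fgfbp1 (chromosome 5, 43978858 to 43981779), a secreted carrier that frees Fgf from heparan sulphate, was read at 4.90, 4.33 and 5.05 CPM in Day 15 +Wnt (58 to 79 reads in a library) and at or under 1.20 CPM in all 12 other libraries. In Day 15 +Fgf there were 6 reads in the 3 libraries together against 209 in Day 15 +Wnt, a ratio of 0.0297 (95% exact interval 0.0108 to 0.0658, counting error only). The fitted differences were 3.50 ± 0.38 from Day 12 to Day 15 +Wnt (adjusted p 5.09e-07) and -3.57 ± 0.38 between +Fgf and +Wnt at Day 15 (adjusted p 3.53e-07), and they depend on the 0.3 CPM added (2.32 and -2.34 with 1 CPM). The filter, which Fgfbp1 passed mostly through Day 15 +Wnt, favoured both differences. The 7 lens markers summed to between 50.5 and 70.5 CPM in Day 15 +Wnt and to at most 12.2 CPM elsewhere, mostly through Cryab and Mip, while Foxe3 was at 0 there, Cryaa was at or under 0.0746 CPM and Bfsp1 overlapped the other groups. The mesenchyme markers given above were, as a sum, highest in Day 15 +Wnt too, but Sox10, Foxd3 and Foxc1 were not. Their part in the level of Fgfbp1 was not tested.

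Fgfbp3 (chromosome 19, 36917550 to 36919615), the other carrier, had 12.4, 11.3 and 13.7 CPM at Day 10, below all later libraries. It rose by 0.90 ± 0.24 to Day 12 +Fgf (21.7, 30.1 and 19.6 CPM, adjusted p 0.00457; 0.457 with RIN as a covariate) and by 1.3965 ± 0.24 to Day 12 +Wnt (33.5, 32.4 and 33.6 CPM, adjusted p 1.01e-04). At Day 15 the libraries scattered, from 22.3 to 43.2 CPM in +Fgf and from 17.4 to 37.1 CPM in +Wnt, and the media did not differ beyond the threshold (0.41 ± 0.24, adjusted p 0.139).

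The Flrt genes encode leucine-rich membrane proteins that bind Fgf receptors and guidance receptors. Flrt3 (chromosome 2, 140650914 to 140671469), a promoter of Fgf signalling, was highest at Day 10 with 161, 187 and 163 CPM. It was at 112, 114 and 109 CPM in Day 12 +Fgf and 106, 105 and 109 CPM in Day 12 +Wnt, and then separated, with 35.7, 39.4 and 44.5 CPM in Day 15 +Fgf and 77.4, 84.1 and 81.9 CPM in Day 15 +Wnt. It fell by 0.61 ± 0.07 and 0.67 ± 0.07 to Day 12 (+Fgf, adjusted p 2.17e-06; +Wnt, adjusted p 5.17e-07), by 1.48 ± 0.07 from Day 12 to Day 15 in +Fgf (adjusted p 6.11e-11) and by 0.39 ± 0.07 in +Wnt (adjusted p 1.03e-04), so that the media differed by -1.02 ± 0.07 at Day 15 (adjusted p 1.32e-09).

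Flrt2 (chromosome 12, 95692226 to 95785215) lay between 109 and 165 CPM in the 9 libraries of Days 10 and 12 and then fell by 1.17 ± 0.11 in +Fgf (to 59.4, 65.6 and 67.3 CPM, adjusted p 1.31e-07) and by 0.71 ± 0.11 in +Wnt (to 100.2, 96.1 and 86.8 CPM, adjusted p 1.80e-05). Its call for Day 12 +Wnt against Day 10 (0.26 ± 0.11, adjusted p 0.0495) was not firm, as it was lost without any 1 of 11 libraries, namely Day 10 replicates 1 and 3, Day 12 +Fgf replicate 1, the 3 of Day 12 +Wnt, Day 15 +Fgf replicates 2 and 3 and the 3 of Day 15 +Wnt (adjusted p 0.05003 to 0.286) and under 8 other settings (adjusted p 0.0516 to 0.163), with a log2 value of 0.13 without Day 10 replicate 1. Flrt1 (chromosome 19, 7092001 to 7105729) moved the other way in +Fgf, from 3.00, 5.42 and 3.51 CPM at Day 10 to 7.86, 4.91 and 8.37 CPM at Day 12 and 10.0, 9.13 and 11.9 CPM at Day 15. In +Wnt it had between 4.97 and 5.89 CPM at Day 12 and between 5.19 and 7.01 CPM at Day 15. It rose by 0.79 ± 0.21 to Day 12 +Fgf (adjusted p 0.00493) and was higher in +Fgf than in +Wnt by 0.70 ± 0.21 at Day 15 (adjusted p 0.00738), and both calls were lost with RIN as a covariate (adjusted p 0.0817 and 0.119). Its rise from Day 12 to Day 15 +Fgf (0.57 ± 0.21, adjusted p 0.0313) was lost without Day 12 +Fgf replicate 2 or Day 15 +Fgf replicate 1 or 3 (adjusted p 0.0529 to 0.184) and under 4 other settings (adjusted p 0.0501 to 0.285), with a log2 value of 0.33 without Day 12 +Fgf replicate 2.

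Set against Day 10, 12 of the 21 tested genes were called in Day 12 +Fgf (7 higher, 5 lower; 55.7% of all genes, 27.9% higher and 27.8% lower) and 14 in Day 12 +Wnt (6 higher, 8 lower; 60.2% of all genes, 30.6% higher and 29.6% lower). These comparisons share the Day 10 libraries, and the rise of Fgf18 in Day 12 +Wnt was built into the filter. The filter also favoured the rises of Fgf11 and Fgf14 in both media, as neither passed through a Day 10 library. A log2 change of 1 or more was reached by Fgf8, Fgf15, Fgf14 and Fgfr2 in the former (9.34% of all genes did) and Fgf10, Fgf8, Fgf9, Fgf15, Fgf14 and Fgfbp3 in the latter (10.5%). From Day 12 to Day 15, 12 of 21 were called in +Fgf (6 higher, 6 lower; 57.1% of all genes, 27.2% higher and 29.9% lower), 7 of them by at least 1 (12.3%). In +Wnt, 13 were called (10 higher, 3 lower; 68% of all genes, 32.5% higher and 35.5% lower), 6 of them by at least 1 (16.7%). The median log2 change of the tested genes in +Wnt over this time was 0.39, beside -0.02 over all genes, and in +Fgf it was 0.10, beside -0.02. The tested genes behind these counts and medians include some that passed the filter only or mostly through Day 15 libraries, namely Fgf3, Fgf5, Fgfr4, Fgfbp1 and Fgf11. The filter thus favoured rises of Fgf3, Fgf5, Fgfr4 and Fgf11 in +Fgf. In +Wnt it favoured rises of Fgf5, Fgfr4, Fgfbp1 and Fgf11. Fgf5 was called in neither medium.

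Whether a gene changed differently in the media from Day 12 to Day 15 was tested directly as an interaction, and 12 of 21 genes passed (47.9% of all genes), 3 with the more positive change in +Fgf (27% of all genes) and 9 with the more positive change in +Wnt (20.9%). Of these, 6 differed by at least 1 on the log2 scale (14.2% of all genes). The largest were Fgfbp1 (-3.52 ± 0.54, adjusted p 5.45e-05), Fgf10 (-1.56 ± 0.41, adjusted p 0.00515), Fgfr2 (-1.39 ± 0.17, adjusted p 4.97e-06), Flrt3 (-1.09 ± 0.10, adjusted p 1.93e-07), Fgf12 (-1.05 ± 0.17, adjusted p 1.06e-04) and Fgf3 (1.00 ± 0.36, adjusted p 0.0284). Fgf3 passed the filter only through Day 15 +Fgf, and Fgfbp1 mostly through Day 15 +Wnt, so the filter favoured these directions. For Fgf15 the changes did not differ beyond the threshold (0.45 ± 0.26, adjusted p 0.173). The interaction was lost when 1 of several libraries was left out for 4 genes. For Fgf3 these were Day 12 +Fgf replicate 3, Day 12 +Wnt replicate 2, Day 15 +Fgf replicates 2 and 3 and Day 15 +Wnt replicates 1 and 3 (adjusted p 0.0501 to 0.0726). For Fgfr3 they were Day 12 +Fgf replicate 2, Day 15 +Fgf replicates 1 and 2 and Day 15 +Wnt replicates 1 and 3 (adjusted p 0.0511 to 0.0754). For Flrt2 they were Day 12 +Fgf replicates 1 and 3, Day 12 +Wnt replicate 1, Day 15 +Fgf replicate 1 and Day 15 +Wnt replicate 1 (adjusted p 0.0514 to 0.0615). For Fgfbp3 they were Day 12 +Fgf replicates 1 and 3, the 3 of Day 12 +Wnt, Day 15 +Fgf replicates 2 and 3 and Day 15 +Wnt replicates 1 and 2 (adjusted p 0.0564 to 0.105).

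**Figure D4:**
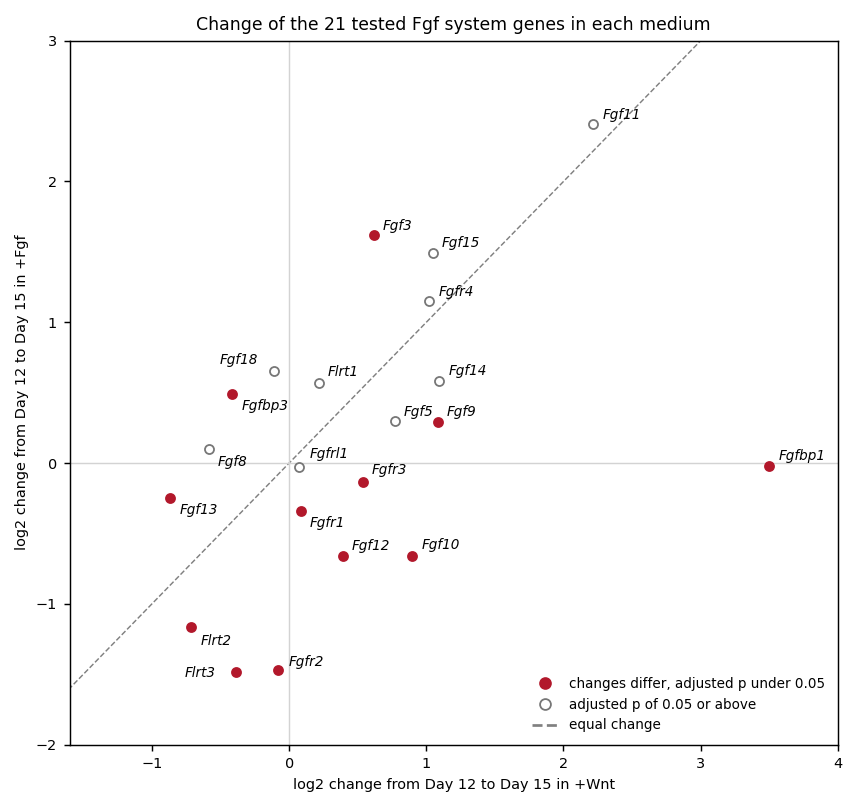
Log2 change from Day 12 to Day 15 of the 21 tested genes in +Wnt (horizontal) and +Fgf (vertical); the dashed line marks equal change and filled points have an interaction with adjusted p under 0.05. Fgfr2 and Flrt3 fall further in +Fgf, Fgfbp1 rises in +Wnt, and Fgf11 rises in both. The filter favoured the rise of Fgfbp1 in +Wnt and that of Fgf3 in +Fgf.

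The feedback targets of the receptor cascade, a list of 12 genes of which 11 were tested, gave the level of induced signalling genes in the same libraries (Spry3 had no read). All 11 were higher in Day 12 +Fgf than at Day 10, 8 of them by at least 1 on the log2 scale (27.9% of all genes were higher and 9.34% changed by that much in either direction), with a median of 1.35 beside -0.0021 over all genes. In Day 12 +Wnt 7 were lower and 1 higher than at Day 10 (29.6% and 30.6% of all genes), with a median of -0.45. Dusp6, the Erk phosphatase, was read at 55.2, 56.3 and 55.9 CPM at Day 10, at 151, 148 and 165 CPM in Day 12 +Fgf and 95.7, 91.3 and 94.1 CPM in Day 15 +Fgf, and at 19.5, 25.3 and 26.7 CPM in Day 12 +Wnt and 12.8, 18.4 and 17.5 CPM in Day 15 +Wnt. The groups did not overlap. Etv5, an Fgf-induced transcription factor, had the largest difference between the media at Day 12 (2.83 ± 0.12, adjusted p 1.01e-11), at 137, 127 and 132 CPM in +Fgf and 17.9, 20.9 and 16.4 CPM in +Wnt. At Day 15 the largest difference was that of Dusp6 (2.53 ± 0.11, adjusted p 8.15e-12).

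Spry1, a Sprouty inhibitor of the receptor cascade, was the exception. It was higher in +Fgf at Day 12 by 0.38 ± 0.11 (adjusted p 0.00910), with 44.11, 31.35 and 45.17 CPM in +Fgf and 28.75, 31.67 and 31.25 CPM in +Wnt. These Day 12 groups overlapped through +Fgf replicate 2. Spry1 was lower in +Fgf at Day 15 by 0.37 ± 0.11 (adjusted p 0.00639), with 38.0, 44.2 and 45.2 CPM in Day 15 +Fgf and 57.5, 56.3 and 51.2 CPM in Day 15 +Wnt. The other 10 tested targets were higher in Day 15 +Fgf than in Day 15 +Wnt (38% of all genes), 5 of them by at least 1 (19.7% of all genes in either direction). In +Wnt 7 of 11 rose from Day 12 to Day 15 and 3 fell (32.5% and 35.5% of all genes), with a median of 0.30, and Etv4 (1.49) and Spry2 (1.16) rose by more than 1, a pair named after their values were seen. Spry2 went from 9.18, 9.67 and 9.003 CPM to 20.4, 21.6 and 21.2 CPM in +Wnt, and Etv4 from 5.10, 7.10 and 9.4 CPM to 20.8, 20.96 and 18.8 CPM.

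**Figure D5:**
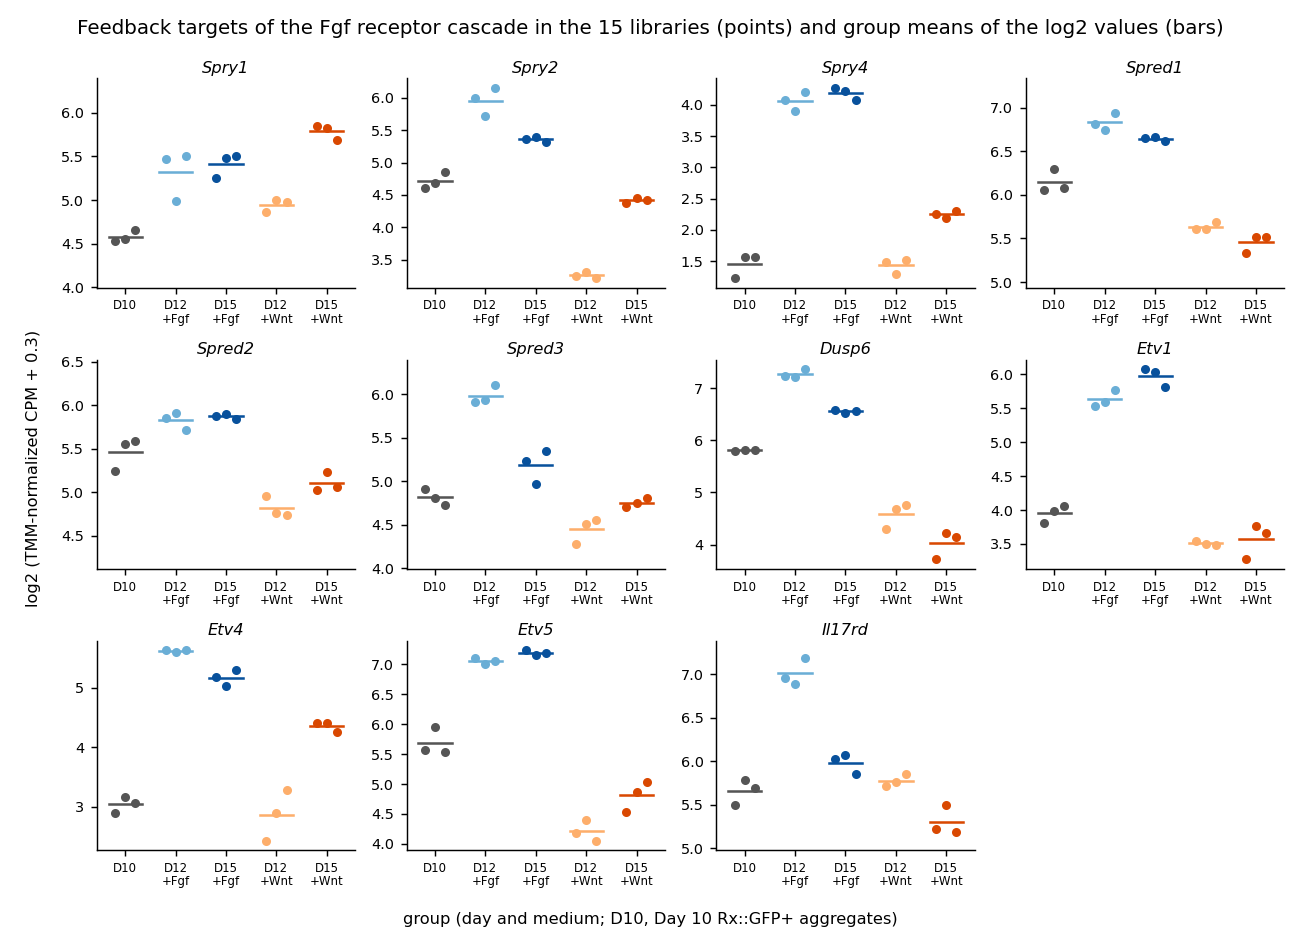
Level of the 11 feedback targets with reads, as log2(TMM-normalized CPM + 0.3), in the 15 libraries (points) with group means of the log2 values (short bars); the range of the vertical axis differs between panels. All 11 lie higher in Day 12 +Fgf than at Day 10, and Spry1 is the 1 target that is higher in +Wnt than in +Fgf at Day 15.

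Transcripts of the cascade between receptor and targets were tested for 22 of 23 listed genes (Hras was not among the symbols of the table). None differed by 1 on the log2 scale between the media at either day. At Day 12 the extremes were Cbl, a ubiquitin ligase that removes activated receptors (0.67 ± 0.12, adjusted p 1.59e-04), and Araf, a kinase of the cascade (-0.29 ± 0.06, adjusted p 0.00115). At Day 15 they were the receptor adaptor Frs3 (0.91 ± 0.10, adjusted p 6.57e-07) and the adaptor Shc1 (-0.40 ± 0.07, adjusted p 4.91e-05). In all, 12 of 22 passed at Day 12, 8 higher and 4 lower in +Fgf (51.5% of all genes passed, 26.3% higher and 25.2% lower). At Day 15, 14 passed, 11 higher and 3 lower (68.7% of all genes, 38% higher and 30.6% lower). From Day 12 to Day 15 +Fgf 1 gene of the list changed by at least 1, the adaptor Gab2, named after its values were seen, which rose by 1.07 ± 0.09 (adjusted p 5.07e-08), from 16.4, 15.0 and 15.3 CPM to 34.4, 32.3 and 32.5 CPM.

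Heparan sulphate, the co-receptor sugar that ligand and receptor share, was approached through 23 genes of its synthesis and editing, all tested, and 12 core proteins, 11 tested. At Day 12, 6 chain genes were higher and 6 lower in +Fgf than in +Wnt (26.3% and 25.2% of all genes). The sulphotransferase Hs3st1 was the lowest (-1.57 ± 0.15, adjusted p 2.76e-07), with 9.95, 7.14 and 9.84 CPM in +Fgf and 27.9, 30.0 and 23.3 CPM in +Wnt, and Hs3st4 was the highest (1.45 ± 0.32, adjusted p 0.00124). At Day 15, 6 were higher and 11 lower (38% and 30.6% of all genes), with a list median of -0.39 beside 0.05 over all genes. Hs3st1 was again the lowest (-1.77 ± 0.15, adjusted p 2.82e-08) and Hs3st5 the highest (1.95 ± 0.23, adjusted p 1.28e-06), at 14.8, 13.9 and 10.9 CPM in +Fgf and 3.10, 3.88 and 2.60 CPM in +Wnt.

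Of the genes of core proteins, 7 were higher and 1 lower in +Fgf at Day 12 (26.3% and 25.2% of all genes), and 4 were higher and 5 lower at Day 15 (38% and 30.6%). The glypican Gpc4 was the highest at both days, by 1.28 ± 0.07 (adjusted p 1.94e-10) and 1.17 ± 0.07 (adjusted p 2.36e-10), with 109, 108 and 114 CPM in Day 12 +Fgf and 49.7, 42.4 and 44.0 CPM in Day 12 +Wnt. Gpc3 was the lowest at Day 12 (-0.99 ± 0.15, adjusted p 4.13e-05) and the syndecan Sdc4 at Day 15 (-1.22 ± 0.08, adjusted p 1.31e-09), where it had 24.3, 25.7 and 24.3 CPM in +Fgf and 59.2, 54.1 and 61.2 CPM in +Wnt.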

How the data were processed

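RNA of 15 libraries was sequenced with a stranded poly(A) kit. Per the labels and the submitters' processing notes, the authors used bcl2fastq 1.8.4, FastQC 0.10.1, TopHat2 2.0.8b, Cufflinks 2.1.1, Cuffdiff and edgeR 3.2.4 with mouse build mm10, and the strand setting of the counting is not given in the sources used here. The deposited values are a signal per gene, namely CPM scaled by the authors with TMM factors. They were planned for as CPM. Whole reads were recovered from 100% of the non-zero values (tolerance 0.01), and 0 value columns belonged to no sample. Depth was 12556998 to 16175450 reads per library, and intervals cover counting error only. The triplicates are described as biological replicates of 1 line, so p-values measure the spread between these cultures.

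Genes with at least 1 CPM in 3 or more libraries (13845 of 23244) were tested on log2(CPM + 0.3) with limma 3.58.1 (R 4.3.3), on the means of 5 groups with all 15 libraries in the fit, moderation with a trend and Benjamini-Hochberg adjustment at 0.05. The fit was tested on simulated data. The members and lists were chosen with earlier results of these data known. Values in every library, or their range, were given for members with a group mean of at least 3 CPM. Statistics were given where the change passed the threshold with at least 1 on the log2 scale. Other statistics were added where their call bears on the role. From each pathway list the genes with the largest rise and fall between the media at each day were named. Levels between genes were compared per kilobase of exon union (GENCODE vM21, GRCm38). Alternatives were 0.05 and 1 CPM added, no filter or 10 CPM, quantile and median-of-ratios scaling (DESeq2 1.42.0), no trend, RIN or PCR cycles as a covariate, a replicate block, edgeR 4.0.16 quasi-likelihood on the recovered reads, only the groups compared, and leaving out each library. The results of these alternatives are given for the members and not for the other genes of the pathway lists. Promoter sequences are RefSeq's. Tables and intervals came from Python 3.11.15 with SciPy 1.17.1, pandas 2.3.3 and NumPy 2.4.6, and plots from matplotlib 3.10.9.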

Additional observations from a re-analysis of the deposited data

Results flagged for a closer look

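For 12 genes the log2 change from Day 12 to Day 15 differed between +Fgf and +Wnt by limma's test of the interaction (the change in +Fgf minus that in +Wnt, 3 libraries per group). The difference was more positive in +Fgf for Fgf3 (1.00 ± 0.36, adjusted p 0.0284), Fgfbp3 (0.91 ± 0.34, adjusted p 0.0362) and Fgf13 (0.62 ± 0.12, adjusted p 4.74e-04). Fgf3 rose in both media, Fgf13 fell in both, and Fgfbp3 had changes of 0.49 in +Fgf and -0.42 in +Wnt, neither past the threshold. For Fgf3, and for Fgfbp1 below, the filter favoured the direction found.

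The difference was negative for Fgfbp1 (-3.52), Fgf10 (-1.56), Fgfr2 (-1.39), Flrt3 (-1.09), Fgf12 (-1.05), Fgf9 (-0.79 ± 0.25, adjusted p 0.0167), Fgfr3 (-0.67 ± 0.23, adjusted p 0.0267), Flrt2 (-0.45 ± 0.15, adjusted p 0.0222) and Fgfr1 (-0.43 ± 0.08, adjusted p 3.62e-04). Fgf12 fell in +Fgf and rose in +Wnt. The RIN covariate ended the calls of Fgf3, Fgf9, Fgfr1, Fgfr3 and Flrt2 (adjusted p up to 0.848), and that of Fgf9 was also lost under quantile normalization, where its value was -0.17 (adjusted p 0.611). The call of Fgf3 was also lost with 0.05 CPM added (0.82, adjusted p 0.333) and by edgeR's quasi-likelihood test (0.58, adjusted p 0.675). That of Fgfbp3 was lost without the filter, without a trend and with only the groups compared (adjusted p 0.0513 to 0.0735), and that of Flrt2 without a trend (adjusted p 0.0522).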

How the results depend on the processing

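Of 87 called values of the tested genes (75 in the 6 comparisons and 12 interactions), 55 kept their call under all 27 alternatives and 32 lost it in 1 or more. RIN as a covariate ended 20 calls and turned 1, the Day 12 to Day 15 change of Fgf13 in +Fgf, to 0.069 (adjusted p 0.784). It left 7 interactions of 12. Quantile normalization ended 12 calls, and each other setting that kept all genes 1 to 4. Requiring 10 CPM kept all 56 calls still tested, but 31 were not tested, so that fewer genes were called: 7 from Day 12 to Day 15 +Fgf, 7 in +Wnt and 6 between the media at Day 12. The cause of the losses with RIN was not tested. Leaving out 1 library ended 2 to 6 calls and gave 10 to 13 genes for Day 12 +Fgf against Day 10, 11 to 15 for Day 12 +Wnt against Day 10, 10 to 13 and 12 to 13 from Day 12 to Day 15 in +Fgf and +Wnt, 9 to 12 and 14 to 16 between the media at Day 12 and Day 15, and 8 to 12 interactions.

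Libraries with the same replicate number did not deviate together (correlations of -0.25 to 0.22), so the numbers were not used as pairs. With a replicate block, 12, 13, 12, 14, 10 and 14 genes were called in the 6 comparisons in the order above and 12 interactions, and 1 call of 87 was lost, that of Flrt2 in Day 12 +Wnt against Day 10. Depth limits the 13 untested genes, which had at most 1.82 CPM.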

Other observations

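The feedback targets of the receptor cascade also changed unequally from Day 12 to Day 15. By the interaction, 7 of 11 had the more positive change in +Wnt and 0 in +Fgf (20.9% and 27% of all genes), with a median of -0.55 beside 0.06 over all genes. Etv4 (-1.94 ± 0.21, adjusted p 1.47e-06) and Spry2 (-1.75 ± 0.13, adjusted p 3.10e-08), both named after their values were seen, fell in +Fgf from 49.1, 48.5 and 49.2 CPM to 36.0, 32.3 and 39.1 CPM and from 63.1, 52.1 and 70.6 CPM to 40.9, 41.9 and 39.4 CPM, while they rose in +Wnt. For Dusp6 the difference was -0.17 ± 0.16 (adjusted p 0.422).

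Of the heparan sulphate core proteins, 6 of 11 had the more positive change in +Wnt and 0 in +Fgf (20.9% and 27% of all genes). Sdc4, a syndecan of epithelia that carries heparan sulphate, differed by -1.43 ± 0.12 (adjusted p 7.23e-08), from 19.4, 17.0 and 15.2 CPM in Day 12 +Wnt to 59.2, 54.1 and 61.2 CPM in Day 15 +Wnt.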
